A study of Arabidopsis thaliana with 8 samples.

Results

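The 40S subunit of the cytosolic ribosome binds mRNA and decodes it, and in plants each of its proteins is encoded by a small family of paralogous genes. The genes described here are the 59 Arabidopsis thaliana loci of 21 such families, from Sa to S20 without S6, taken from a list of locus identifiers that holds no measured value but was drawn up with earlier results of these data known. All 59 were found among the 27415 genes of the deposited tables, and 56 had enough coding-sequence (CDS) reads to be among the 19823 genes tested. Seedlings of the wild-type Col-0 (Columbia-0) ecotype were grown in darkness for 4 days on MS medium and collected either without light or after 4 h of white light. From both conditions steady-state mRNA was sequenced, and so was ribosome-protected mRNA (RP), the fragments that ribosomes shield from RNase I in a polysome extract. The 8 libraries thus fall into 4 groups of 2 (repeats 1 and 2), with no mutant or transgene in any of them. Since no label tells if the repeats came from different cultures, a p-value here reflects the spread among these libraries, which may be technical.

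Proteins of the 40S head, among them S3, S5, S10, S12, S15, S16, S18, S19 and S20, surround the decoding site and the beak of the subunit. S2, S3 and S9 line the channel where mRNA enters, S3a and S14 lie on the platform where it leaves, and Sa sits on the solvent side. The remaining families are mostly proteins of the body. Ribosomal protein genes are among the most abundant mRNAs of growing plant tissue, and their promoters often carry site II elements (TGGGCC or TGGGCT) and the telo box (AAACCCTA). A ribosome holds 1 copy of each core protein, so paralogues of a family compete for the same place.

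Coding sequences held 30997341 to 37245819 reads in the mRNA libraries, 4843438 (dark) and 4617343 (light) reads in RP of repeat 1, and 14974871 and 40972194 in RP of repeat 2. The dark-to-light state of the labels was seen in both repeats. PORA, a dark-expressed enzyme of chlorophyll synthesis, stood at 83.3 and 563 CPM of mRNA, a read count relative to its library's TMM-adjusted total, in the dark and at 4.31 and 8.39 CPM after light. LHCB1.4, a light-harvesting protein, stood at 1.63 and 4.40 CPM in the dark and at 313 and 623 CPM after light. The 59 loci took 0.288% and 0.526% of CDS reads in dark mRNA (repeats 1 and 2), 0.270% and 0.446% in light mRNA, 0.310% and 0.602% in dark RP, and 0.327% and 0.548% in light RP. The Wilson 95% intervals of these shares cover counting error only, and the one in dark mRNA of repeat 1 spanned 0.00184 percentage points to either side. The difference between repeats was thus wider than that between dark and light. In repeat 2 the level of 54 of 56 tested loci in dark mRNA, and of 55 of 56 in each of the other 3 groups, was above that in repeat 1. The median log2 difference between repeats was 0.64 in dark mRNA, 0.59 in light mRNA, 0.94 in dark RP and 0.92 in light RP, against 0.02, 0.02, 0.06 and 0.10 over all tested genes. The 90 tested loci for 60S proteins, which build the large subunit, differed in the same direction, with medians of 0.75, 0.68, 1.02 and 0.94. Markers of dividing cells, of which 0 of 8 were at 0 reads in any library, summed to 80.1 and 79.1 CPM in dark mRNA, 66.6 and 110 in light mRNA, 138 and 148 in dark RP, and 90.7 and 145 in light RP. Their part in the results was not tested. In whole seedlings, fewer cells of a type and less RNA per cell cannot be told apart.

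Most of the loci were expressed far above the typical gene. The median of the 56 tested loci was 66.5 and 122 CPM per kb of CDS (a level per length) in dark mRNA and 66.7 and 125 in light mRNA. The median of all tested genes was 10.99 and 11.4 in the dark and 12.3 and 12.3 after light. In RP the median of the 56 tested loci was 100 and 201 in the dark and 106 and 217 after light. The highest mean level over the 4 mRNA libraries was that of S8 locus AT5G20290, at 357.2 CPM per kb, the 98.4th percentile of tested genes. S9 locus AT5G15200 followed at 315.6, then S5 locus AT3G11940 (RPS5A, known from dividing tissue) at 262.6 and Sa locus AT1G72370 (P40) at 222.9.

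**Figure D1:**
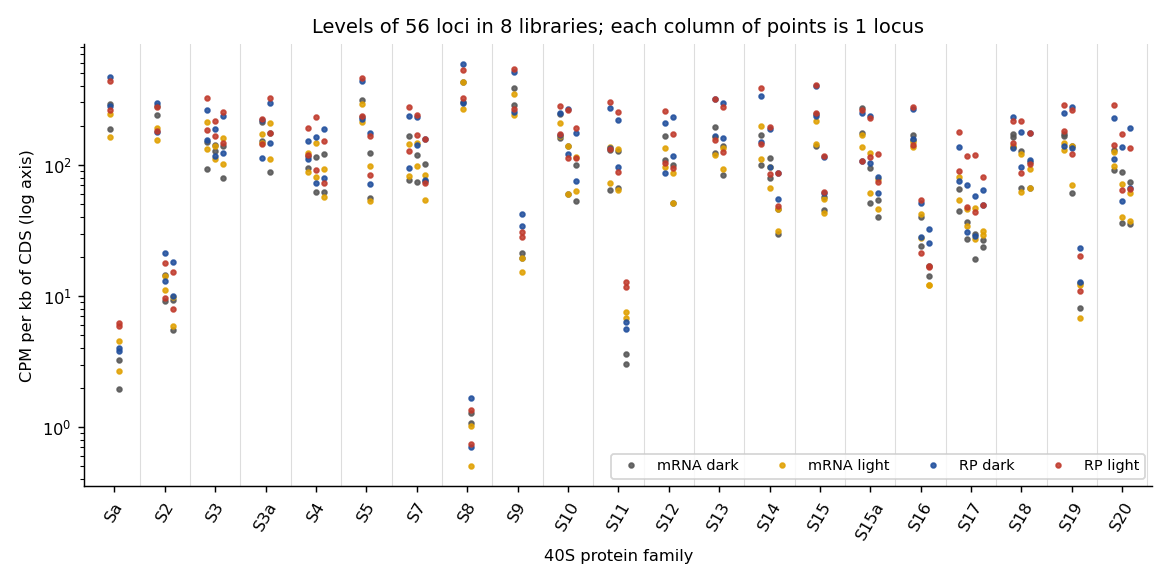
CPM per kb of CDS (log axis) of the 56 tested loci, grouped by protein family. Each column of points is 1 locus, with 2 repeats per colour. Most loci lie within 1 range of high levels, while paralogues of Sa, S2, S8, S9, S11, S16 and S19 lie far below the leading locus of their family.

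Within families the paralogues were used very unequally. In 8 of 21 families the leading paralogue (the one with the highest mean mRNA level) held over 50% of the family's reads per kb in all 8 libraries, and in 2 families, Sa and S8, it held over 90% throughout. AT1G72370 held 97.8 to 99.1% of Sa reads per kb, and AT5G20290 held 99.6 to 99.8% of S8. AT2G41840 held 88.3 to 94.2% of the reads per kb of the 3 listed S2 loci, AT5G15200 85.8 to 95.2% of S9, AT1G04270 (RPS15) 75.6 to 81.0% of S15, AT5G18380 73.3 to 80.2% of S16 and AT3G11940 71.5 to 80.6% of S5. The same locus led in all 8 libraries in 12 of 21 families. AT4G00100 (RPS13A) held 51.1 to 59.4% of S13, AT3G11510 47.7 to 58.0% of S14, AT4G09800 (RPS18C) 35.7 to 56.3% of S18, AT5G62300 41.0 to 56.3% of S20 and AT5G04800 36.1 to 41.6% of S17. S3, S4 and S7 were shared more evenly, with leading shares of 31.0 to 41.6%, 30.4 to 43.3% and 30.4 to 42.9%.

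At the other end stood loci with little or no signal. S15 loci AT5G09500 and AT5G43640 and S15a locus AT2G39590 did not pass the filter on low counts. AT5G09500 had 1 CDS read in each of 3 libraries, and AT5G43640 and AT2G39590 had 0 in all 8. AT5G43640 shares 26.7% of its 28-base windows with other genes, and the treatment of reads that match several places is not stated in the labels or headers. The lowest tested locus was AT5G59240 of S8, at 0.968 CPM per kb over the mRNA libraries and 369-fold below AT5G20290. It had 23 and 34 CDS reads in dark mRNA, 10 and 27 in light mRNA, 2 and 15 in dark RP, and 2 and 29 in light RP, so its light response cannot be read at this depth.

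The 150 bases before the annotated gene start are shown for the 4 families with the widest gap between the leading and the least abundant tested paralogue, S8, Sa, S2 and S11, the leading paralogue first in each pair. They come from the RefSeq annotation of TAIR10.1, on the strand of the gene, and capitals mark the site II letters and the telo box on either strand. Read on the opposite strand, the site II letters appear as GGCCCA or as AGCCCA, and the telo box as TAGGGTTT. The letters can overlap, since TGGGCCCA holds a copy on each strand. The windows are chr5:6853107-6853256 (minus strand) and chr5:23903768-23903917 (minus) for S8, chr1:27244932-27245081 (minus) and chr3:1311130-1311279 (minus) for Sa, chr2:17461540-17461689 (minus) and chr3:21281065-21281214 (minus) for S2, and chr3:18142282-18142431 (minus) and chr4:15000810-15000959 (plus) for S11.
S8 AT5G20290: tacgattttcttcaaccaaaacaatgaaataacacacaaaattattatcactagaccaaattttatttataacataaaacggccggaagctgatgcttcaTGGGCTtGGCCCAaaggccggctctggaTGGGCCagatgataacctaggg
S8 AT5G59240: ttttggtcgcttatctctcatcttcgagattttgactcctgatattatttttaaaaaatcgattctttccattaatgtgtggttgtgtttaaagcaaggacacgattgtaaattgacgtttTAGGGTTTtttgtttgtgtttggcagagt
Sa AT1G72370: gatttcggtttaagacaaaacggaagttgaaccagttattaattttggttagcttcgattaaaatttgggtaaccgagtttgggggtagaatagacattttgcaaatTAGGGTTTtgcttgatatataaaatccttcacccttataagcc
Sa AT3G04770: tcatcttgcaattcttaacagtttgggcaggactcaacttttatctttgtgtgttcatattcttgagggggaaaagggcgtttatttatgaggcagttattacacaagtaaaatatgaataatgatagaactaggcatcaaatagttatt
S2 AT2G41840: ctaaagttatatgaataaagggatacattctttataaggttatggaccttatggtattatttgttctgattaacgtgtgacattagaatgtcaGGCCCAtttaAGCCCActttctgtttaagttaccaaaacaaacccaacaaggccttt
S2 AT3G57490: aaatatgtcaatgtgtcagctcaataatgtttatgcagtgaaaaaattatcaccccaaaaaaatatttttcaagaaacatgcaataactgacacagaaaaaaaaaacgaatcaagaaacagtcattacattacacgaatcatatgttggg
S11 AT3G48930: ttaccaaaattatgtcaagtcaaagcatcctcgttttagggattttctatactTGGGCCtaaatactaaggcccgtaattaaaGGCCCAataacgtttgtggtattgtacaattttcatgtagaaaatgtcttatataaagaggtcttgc
S11 AT4G30800: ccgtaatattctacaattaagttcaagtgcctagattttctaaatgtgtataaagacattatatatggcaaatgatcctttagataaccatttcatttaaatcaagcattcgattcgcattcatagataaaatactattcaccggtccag
Of these 4 pairs, the leading loci of S8, S2 and S11 hold 2 or 3 copies of the TGGGCC or TGGGCT letters, while that of Sa holds 0, and so do the least abundant loci of all 4. In 7 families the least abundant tested locus lay over 10-fold below the leading one, and within 250 bases 4 of the 7 leading loci hold the letters and 0 of the 7 least abundant. Of 21 leading paralogues, 13 hold TGGGCC or TGGGCT within 250 bases of the start, and so do 22 of the 38 others. Over the 59 loci the share was 59.3% (35 loci), and 18.6% (11 loci) hold the telo box, where the shares in 26708 nuclear protein-coding genes were 19.4% and 4.44%. The listed 60S loci hold these letters at 69.1% and 24.5%. A match of letters describes the sequence only.

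After 4 h of light the fitted mRNA change of 50 of 56 loci lay within 0.5 of 0 on the log2 scale, with a median standard error of 0.48. Of the 19823 tested genes, 11240 lay within 0.5 of 0. By the quasi-likelihood test of edgeR (Benjamini-Hochberg, over all tested genes) 0 of 56 loci passed, where 4.78% of all tested genes did. At an unadjusted p below 0.05 there was 1 locus, beside 3773 of the 19823 tested genes. DESeq2 called 0 loci, beside 11.3% of all genes. The median log2 change was -0.09 (0.02 in repeat 1 and -0.04 in repeat 2), against 0.01 for all genes. On simulated counts of this design the test recovered few 2-fold changes, so that a missed threshold does not show equal levels, here or in the comparisons that follow. With the 2 repeats treated as pairs, a block that lowered the biological coefficient of variation from 0.391 to 0.170, 3 loci passed, beside 33.6% of all tested genes. Of these 2 were higher and 1 lower, beside 19.4% and 14.2% of all genes. The median moved to between -0.38 and 0.38 when 1 of the 4 mRNA libraries was left out (0.38 without dark repeat 2, 0.22 without light repeat 1, -0.37 without light repeat 2 and -0.38 without dark repeat 1), since levels differ between the repeats.

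The largest light difference belonged to a scarce paralogue of S11, a protein of the body of the subunit. AT4G30800 stood at 3.03 and 3.62 CPM per kb in dark mRNA (49 and 73 reads) and at 6.74 and 7.54 in light mRNA (102 and 152 reads). Its RP level was 5.57 and 6.30 in the dark (12 and 43 reads) and 11.8 and 12.9 after light (24 and 209 reads). In both kinds of library both light values lay above both dark values, without overlap. The fitted log2 change was 1.10 ± 0.29 (SE, n = 2 libraries per group) in mRNA, with an adjusted p of 0.0909 in edgeR's test and 0.00473 with the repeat block. In RP it was 1.05 ± 0.30 (adjusted p = 0.0971, and 0.0131 with the block), so that the threshold was passed in both kinds of library only in the paired fit. None of its 28-base windows occurs elsewhere in the coding sequences, and it overlaps no other annotated gene. The leading S11 paralogue AT3G48930 (EMB1080) stood at 64.2 and 131 CPM per kb in dark mRNA and at 72.8 and 138 in light mRNA, with log2 light ratios of 0.18 and 0.08 within the repeats.

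Of the other loci past the threshold with the block, S3 locus AT3G53870 is a head protein at the mRNA entry. It stood at 93.3 and 149 CPM per kb in dark mRNA and 134 and 215 after light. The groups overlap, while the log2 ratio was 0.52 within each repeat, and the fitted change was 0.52 ± 0.46 (edgeR adjusted p = 0.633, and 0.0249 with the block). S2 locus AT2G41840, the most abundant of the 3 listed loci for this protein of the entry channel, went from 239 and 282 CPM per kb in the dark to 156 and 193 after light. Here both light values lay below both dark values, and the fitted change was -0.58 ± 0.36 (edgeR adjusted p = 0.472, and 0.0368 with the block). Its RP level was 179 and 296 CPM per kb in the dark and 181 and 277 after light, with overlapping groups and a fitted log2 change of -0.05 ± 0.36. The lowest fitted value in mRNA, that of AT5G59240 (-0.62 ± 0.59), and the second highest, that of S17 locus AT3G10610 (0.61 ± 0.57), passed neither way.

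Ribosome-protected reads gave a like picture. Of 56 loci 0 passed in edgeR's test, beside 6.84% of all genes. At an unadjusted p below 0.05 there were 2 loci, beside 4265 of the 19823 tested genes. DESeq2 called 0 loci, beside 13.5% of all genes. The median log2 change was 0.06 (0.04 and 0.06 in the repeats) against -0.03 for all genes. Within 0.5 of 0 lay 51 of 56 loci, beside 10080 of the 19823 tested genes. Leaving out 1 RP library moved the median to -0.51 (without light repeat 2), -0.34 (without dark repeat 1), 0.45 (without light repeat 1) or 0.64 (without dark repeat 2). With the block 3 loci passed beside 32.0% of all genes, namely AT4G30800, AT3G10610 and AT3G04230, while AT2G32060 (S12), next lowest after AT3G04230 at -0.38 ± 0.52, did not. S17 locus AT3G10610 stood at 29.0 and 58.1 CPM per kb in dark RP and 43.6 and 119 in light RP, with overlapping groups (log2 0.90 ± 0.58, edgeR adjusted p = 0.449, and 0.0161 with the block). S17 is a head protein, and its 4 listed loci summed to the largest fitted family change in RP, 0.49 ± 0.47 (adjusted p = 0.622 in edgeR, and 0.0960 with the block).

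The third of these calls was a decrease in S16, a head protein whose tail reaches the tRNA in the ribosomal P site. AT3G04230 stood at 25.3 and 32.7 CPM per kb in dark RP (50 and 205 reads) and at 16.6 and 17.1 after light (31 and 254 reads). Both light values lay below both dark values. The fitted change was -0.79 ± 0.25 (edgeR adjusted p = 0.125, and 0.0137 with the block), beside -0.36 ± 0.24 in mRNA (adjusted p = 0.502, and 0.144 with the block). The 3 S16 loci are told apart by their coding sequences to very different degrees, as the first 90 CDS bases show (RefSeq, TAIR10.1, on the coding strand). Capitals mark bases that differ from AT2G09990.
AT2G09990: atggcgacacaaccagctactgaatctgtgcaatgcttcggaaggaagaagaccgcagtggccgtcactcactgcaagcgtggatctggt
AT5G18380: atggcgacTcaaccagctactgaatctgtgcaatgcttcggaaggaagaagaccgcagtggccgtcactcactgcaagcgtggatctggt
AT3G04230: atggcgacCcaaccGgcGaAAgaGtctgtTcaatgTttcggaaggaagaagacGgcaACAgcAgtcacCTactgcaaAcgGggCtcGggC
Over the 441 bases of the CDS, AT5G18380 differs from AT2G09990 at 8 positions and AT3G04230 at 65. Of the 28-base windows of AT2G09990 and AT5G18380, 58.0% and 56.5% occur in another gene. The division of reads between these 2 copies is therefore uncertain, and since the treatment of reads with several matches is not stated, so is their sum. The windows of S17 loci AT2G05220 (76.8%) and AT2G04390 (69.7%) are shared as widely, and those of the leading AT5G04800 less (30.8%). The shares within S17, with the lead of AT5G04800, are therefore uncertain too. Those of S2 locus AT1G58380 (58.2%) are shared mostly with loci outside the list, so the S2 shares and sum hold for the listed loci only.

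**Figure D2:**
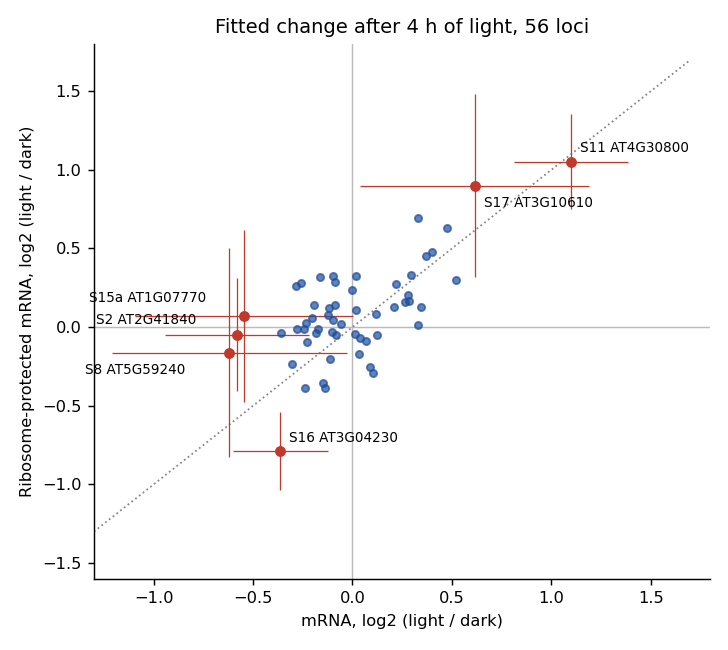
Fitted log2 light-to-dark change in mRNA (x axis) and in RP (y axis) for the 56 tested loci, with standard errors for 6 named loci (red); the dotted line marks equal change. Most points lie within 0.5 of 0 on both axes, AT4G30800 lies near 1.10 and 1.05, and AT3G04230 lies lowest in RP at -0.79.

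The summed families, which do not depend on how reads were divided among the listed paralogues, did not pass for any light comparison. In edgeR's test 0 of 21 families passed in mRNA, beside 4.76% of all rows of that table, 0 in RP, beside 6.85%, and 0 had an unadjusted p below 0.05. With the block 0 passed as well (33.5% and 32% of all rows), and DESeq2 called 0 (11.3% and 13.5%). Fitted changes ran from -0.52 (S2) to 0.36 (S17) in mRNA and from -0.10 (S13) to 0.49 (S17) in RP. The listed other 40S loci (S6, S21 to S30 and RACK1, 32 tested) had a median of 0.18 in mRNA and 0.08 in RP. The 60S loci had medians of -0.01 and 0.08. In both lists 0 loci passed in edgeR without the block. With it 1 other 40S locus, higher in light, and 3 60S loci (2 higher and 1 lower) passed in mRNA, and 0 and 4 (3 higher and 1 lower) in RP. Without the block, 0 in either list had an unadjusted p below 0.05, and DESeq2 called 0.

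The change in RP per mRNA with light (the interaction, a change in translational efficiency) had a median of 0.08, against -0.07 for all genes. In edgeR's test 0 of 56 loci passed, with or without the block, beside 0.0% of all tested genes. Without the block 0 loci had an unadjusted p below 0.05, beside 261 of the 19823 tested genes. DESeq2 called 0 loci, beside 0.0504% of genes. Fitted values ran from -0.43 ± 0.34 (AT3G04230) and -0.39 ± 0.58 (AT1G58380) to 0.62 ± 0.77 (AT1G07770). Within 0.5 of 0 lay 52 of 56 loci, beside 15212 of the 19823 tested genes. Without dark RP repeat 2 the median was 0.61, and without light RP repeat 2 it was -0.44. The remaining 6 libraries left out in turn gave medians between -0.29 and 0.46.

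In both conditions the 40S mRNAs carried more ribosome-protected reads per mRNA read than the typical gene. RP and mRNA are each scaled to their own library, so the ratio is relative to all genes. In the dark 53 of 56 loci had a fitted RP-to-mRNA ratio above 1, with a median log2 of 0.63 (0.53 in repeat 1 and 0.71 in repeat 2), where the median of all genes was 0.01. After light all 56 tested loci did, with a median of 0.75 (0.50 and 0.79), where all genes had 0.01. In edgeR's test 0 loci passed in the dark, beside 4.66% of all genes, and 0 after light, beside 2.46%. At an unadjusted p below 0.05 there were 5 loci in the dark and 3 after light, beside 4847 and 3742 of the 19823 tested genes. DESeq2 called 3 in the dark, all higher in RP, beside 13.3% of all genes (5.09% higher and 8.22% lower). After light it called 1, higher in RP, beside 8.55% (2.41% higher and 6.13% lower). With the repeat block 34 of 56 loci (60.7%) were higher in RP in the dark and 0 lower. Of all genes 19.2% were higher and 21.1% lower. After light 40 loci (71.4%) were higher and 0 lower, where 14.2% of all genes were higher and 18.4% lower. The summed families gave 12 of 21 in the dark and 13 after light with the block, where 19.2% and 14.2% of all rows were higher, and 0 without it, beside 4.7% and 2.46%. At an unadjusted p below 0.05 there were 0 families, and DESeq2 called 0, beside 13.3% and 8.54%. The libraries of repeat 2 weighed on these medians. The dark median was 0.10 without dark RP repeat 2, 0.28 without dark mRNA repeat 1, and 1.01 without either dark RP repeat 1 or dark mRNA repeat 2. The light median was 0.16 without light RP repeat 2, 0.44 without light mRNA repeat 1, 1.04 without light mRNA repeat 2 and 1.09 without light RP repeat 1.

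The 40S loci have short coding sequences, and a part of length in this ratio was not tested. The tested loci have CDS of 369 to 999 bases, with a median of 469.5, against 1161 over all tested genes. The 6691 other tested genes in the same length range had a median log2 RP-to-mRNA ratio of 0.29 in the dark and 0.26 after light. These values lie between those of all genes and of the 40S loci. The other 40S loci had medians of 1.03 and 0.94 and the 60S loci 0.53 and 0.57, and with the block 24 of 32 and 48 of 90 were higher in the dark and 25 and 46 after light, with 1 60S locus lower in the dark. Without the block edgeR called 0 in both lists, with 11 and 6 loci at an unadjusted p below 0.05 in the dark and 10 and 2 after light, and DESeq2 called 6 and 0 in the dark and 4 and 0 after light. Reads of the 59 loci lay in coding sequence at 71.5 to 73.3% in mRNA and 96.6 to 99.2% in RP. In 3′ untranslated regions lay 19.4 to 21.4% of their mRNA reads and 0.269 to 2.28% of their RP reads.

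**Figure D3:**
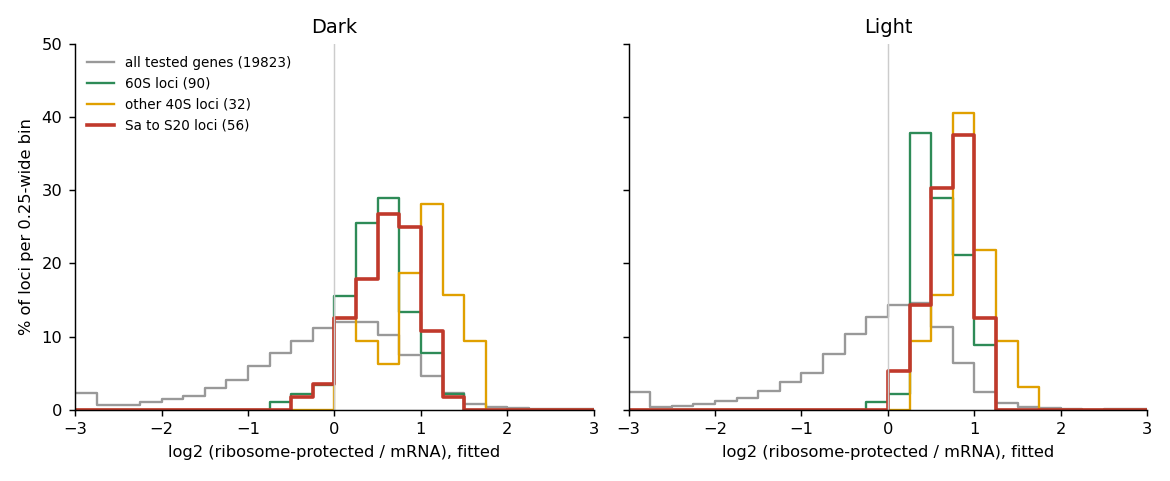
Distribution of the fitted log2 ratio of RP to mRNA in the dark (left) and after light (right), as percent of loci per bin, for the 56 loci, the other 40S loci, the 60S loci and all tested genes; values beyond 3 on either side are counted in the outermost bin. The ribosomal protein loci lie to the right of all genes, with medians of 0.63 in the dark and 0.75 after light for Sa to S20.

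Among the 40S loci the highest ratios in the dark were those of AT3G47370 (S20, a head protein; log2 1.25 ± 0.64), AT5G59850 (S15a; 1.22 ± 0.60) and AT2G32060 (S12, a protein of the beak; 1.21 ± 0.53). Their edgeR adjusted p values were 0.285, 0.266 and 0.224, and 0.00252, 9.28e-04 and 8.14e-04 with the block. The lowest were those of AT1G07770 (RPS15A of S15a; -0.33 ± 0.55), AT4G34670 (S3a; -0.14 ± 0.40) and AT2G41840 (S2; -0.13 ± 0.36), which passed neither way. After light the highest were AT3G10610 (1.14 ± 0.58) and AT3G45030 of S20 (1.11 ± 0.70). The loci that DESeq2 called higher in RP in the dark were AT5G39850 (S9), AT3G04230 (S16) and AT2G04390 (S17), and AT2G04390 after light. AT2G04390 shares 69.7% of its windows with other genes.

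The ratio also differed between paralogues of 1 family, as their shares show. In S15a, AT1G07770 held 66.0 and 64.4% of the family's reads per kb in dark mRNA, but 39.3 and 43.7% in dark RP. AT5G59850 held 19.2 and 22.7% of dark mRNA and 38.3 and 42.0% of dark RP. After light the mRNA share of AT1G07770 was 56.2 and 45.6%, and its RP share 36.3 and 42.9%. Its mRNA share was thus lower after light in both repeats, with a mean change of -14.3 percentage points, and that of AT5G59850 was higher in both, with a mean of 8.26. The mRNA levels of AT1G07770 were 177 and 270 CPM per kb in the dark and 138 and 168 after light, and its RP levels 107 and 247 in the dark and 107 and 264 after light. With 2 libraries against 2 an exact permutation test cannot give a p below 0.333, so shares are given without a test.

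S12 and S3a showed the same kind of gap. In S12, AT1G15930 held 68.2 and 62.5% of dark mRNA and 42.7 and 47.4% of dark RP, so that the partner AT2G32060 led the family in dark RP alone. After light AT1G15930 held 65.3 and 60.8% of mRNA and 52.3 and 59.8% of RP, a mean change of 11.02 points in RP. In S3a, a platform protein, AT4G34670 held 63.3 and 55.0% of dark mRNA and 43.5 and 42.3% of dark RP. Its mRNA share was 57.1 and 45.1% after light, a mean change of -8.04 points, and its RP share 45.2 and 40.7%. AT3G04840 led S3a in all 4 RP libraries and in light mRNA of repeat 2. In S19, a head protein, AT3G02080 went from 70.7 and 53.1% of dark mRNA to 48.5 and 45.7% of dark RP, with 58.0 and 50.1% of light RP. Its RP share minus its mRNA share was -22.2 and -7.37 points in the dark and -4.80 and 0.85 after light. Its mRNA share was thus also lower after light in both repeats. Of the 28-base windows of the coding sequences, 0 of those of S15a and S19 loci, 1.05% of those of each S3a locus and 2.45% of those of each S12 locus occur in another gene.

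**Figure D4:**
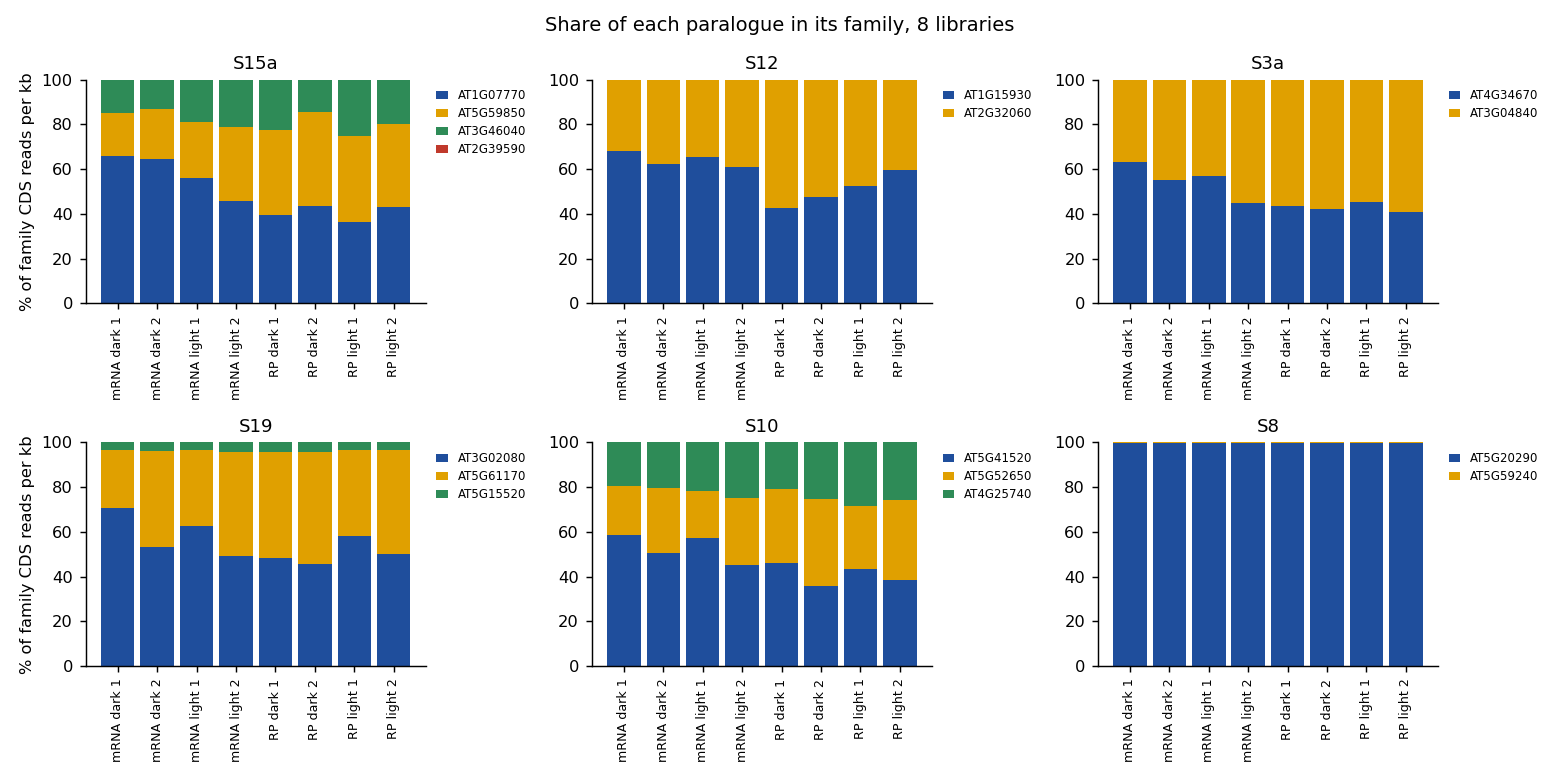
Share of each paralogue (percent of the family's CDS reads per kb) in 8 libraries for S15a, S12, S3a, S19, S10 and S8. In S15a, S12, S3a and S19 the leading mRNA paralogue (blue) holds less of dark RP than of dark mRNA, while in S8 AT5G20290 holds at least 99.6% throughout.

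Across the 21 leading paralogues, the difference between RP share and mRNA share was narrower after light than in the dark in both repeats in 13 families and wider in both in 2 (Sa and S5). The median size of the difference was 4.87 percentage points in the dark and 1.79 after light. It exceeded 5 points in both repeats in 6 families in the dark and in 1 (S10) after light. Leading paralogues were chosen on mRNA level, so a lower share in RP is in part set by that choice, and the comparison of dark with light was made after these values were seen. S10 locus AT5G41520 (RPS10B) held 58.5 and 50.7% of dark mRNA and 46.3 and 36.0% of dark RP, and 57.3 and 45.0% of light mRNA and 43.2 and 38.4% of light RP. The narrowing of the share differences itself was not tested, and shares in other gene families were not examined. The RP-to-mRNA ratio was also less spread after light outside these loci. Over all tested genes its log2 quartiles were -0.62 and 0.53 in the dark and -0.53 and 0.44 after light. For the 60S loci they were 0.29 and 0.72 in the dark and 0.42 and 0.77 after light. The interaction takes a single locus relative to all genes, not to its paralogues. It did not pass for AT1G07770 (0.62 ± 0.77), AT3G02080 (0.55 ± 0.50) or AT1G15930 (0.54 ± 0.80). In edgeR with the block their adjusted p values were 0.858, 0.849 and 0.858.

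**Figure D5:**
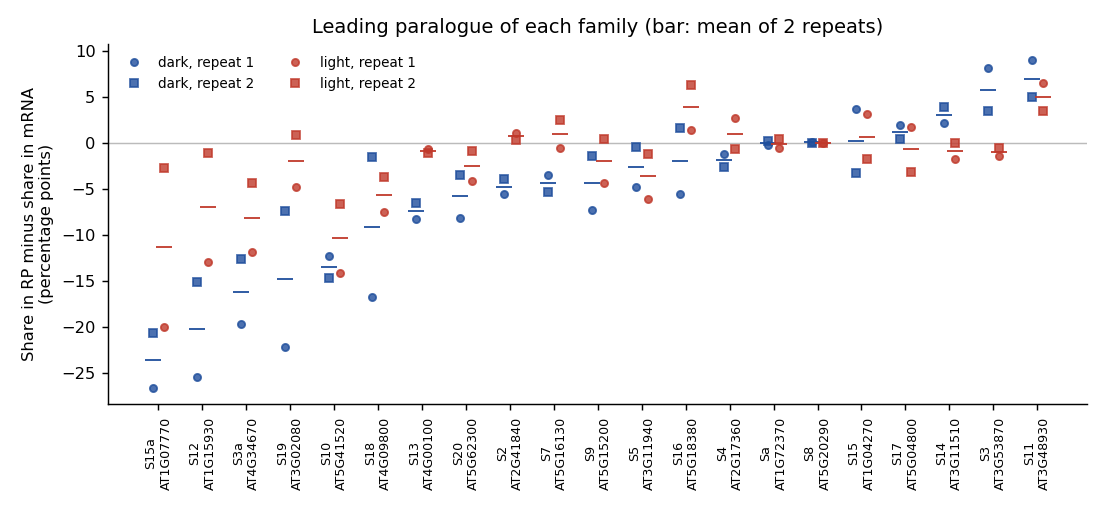
RP share minus mRNA share of the leading paralogue of each family, in percentage points, in the dark (blue) and after light (red); circles are repeat 1, squares repeat 2 and bars the mean of both. S15a, S12, S3a and S19 lie lowest in the dark, at means from -23.7 to -14.8, and nearer to 0 after light.

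Shares in dark and light differed in other families too. In mRNA, S7 locus AT1G48830 gained 8.65 points, from 32.8 and 30.7% to 41.9 and 39.0%. It stood above AT5G16130 in both light libraries and below it in both dark ones. In light mRNA of repeat 2 this lead was slight, at 146 against 145 CPM per kb. In dark mRNA of repeat 1 the lead of AT5G16130 was slight too, at 77.0 against 74.6. In RP AT1G48830 led in repeat 1 and AT5G16130 in repeat 2, in dark and light alike, though in dark RP of repeat 2 by only 237 against 234. In RP, S20 locus AT3G47370 changed by -8.06 points, from 28.9 and 34.3% to 24.2 and 22.8%, and S4 locus AT5G58420, in the body, by -7.43, from 30.0 and 37.1% to 25.8 and 26.5%. These shifts had the same sign in both repeats, as the rule for naming them required. The gene spans of 17 of the 59 loci overlap another annotated gene, 11 of them on the opposite strand, among them AT1G48830 and AT5G59850. The other 6, among them AT3G10610, AT2G41840 and AT2G32060, overlap a gene on the same strand, where strand could not separate reads. The labels and headers do not state if strand was used in counting. Where an overlap reaches the coding sequence, the reads of such partners therefore cannot be told apart. Whether it does was not examined.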

How the data were processed

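Steady-state and ribosome-protected mRNA of 8 libraries were analysed from tables of whole-number read counts for each gene's untranslated regions and coding sequence, which the authors deposited without normalization, per the file headers. The RPKM values that the authors deposited served only to check library totals, and the other RPKM columns, 16 for untranslated regions, were not used. Region lengths in bases are as deposited. The build was TAIR 10, per the submitters' processing notes. The aligner, counter, strand use and treatment of reads with several matches are not stated in the labels or headers.

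CDS counts of all genes were filtered (filterByExpr), scaled by TMM (factors 0.824 to 1.26) and fitted in edgeR 4.0.16 (R 4.3.3) by the quasi-likelihood method with 1 mean per group over 8 libraries. Two-sided p-values were adjusted by Benjamini-Hochberg over 19823 genes, with a threshold of 0.05. Paralogue reads were also summed per family. Logarithms of single libraries used a prior count of 2. Alternatives were a repeat block, RLE size factors, DESeq2 1.42.0, no filter and leaving out each library. The edgeR fits of all 5 comparisons, with and without the block, were tested on simulated counts with known changes; without the block they recovered nearly all of the largest changes in all comparisons but the interaction, and few 2-fold ones. The DESeq2 fit was not simulated.

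Same-numbered libraries deviated together from their group means, with correlations across genes of 0.575 to 0.806 over all 6 pairs of groups, and the deposited tables hold 1 repeat each, so the numbers were taken as pairs. With 2 repeats a group's deviations mirror each other. The loci, lists and naming rule were chosen with earlier results of these data known. Named were the largest changes per comparison, the leading paralogue and the largest share shifts, the extreme RP-to-mRNA ratios in the dark and the loci below the filter. Loci that passed only with the block were named after their values were seen. Promoter and coding sequences came from RefSeq (TAIR10.1), in which all 59 loci matched and 58 had the deposited CDS length. A result on 1 locus is not reported here.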

Additional observations from a re-analysis of the deposited data

How the results depend on the processing

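Treating the repeats as pairs (the replicate block) changed the counts most. With the block the number of 40S loci past the threshold went from 0 to 3 for mRNA with light, from 0 to 3 for RP with light, from 0 to 34 for RP against mRNA in the dark and from 0 to 40 after light, and the summed families from 0 to 12 and from 0 to 13 in the last 2 comparisons. It changed no other such count. DESeq2 without a block called 3 loci for RP against mRNA in the dark and 1 after light. RLE size factors, no filter and leaving out each library in turn left all counts at 0 (range 0 to 0). The block also moved calls over all genes, from 947 to 6659 for mRNA, from 1355 to 6341 for RP, from 923 to 8004 for RP against mRNA in the dark and from 487 to 6470 after light, and DESeq2 gave 2234, 2671, 2639 and 1694. For the interaction 0 genes passed in edgeR with or without the block, and DESeq2 called 10. None of the 160 fitted values of 32 named loci passed the threshold without the block by edgeR, so their signs are loosely held. Leaving out 1 library in turn changed the sign of 108 of them, DESeq2 and RLE size factors of 4 each, no filter of 2 and the block of 0. Depth limits the scarce paralogues, which had as few as 2 reads in an RP library.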
